A study of Mus musculus with 23 samples.

Results

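The genes described here encode the ion channels that set how a neuron fires: sodium, potassium and calcium channel pores and the subunits that assemble with them. They were chosen as the protein-coding genes whose mouse symbol begins with Scn and a digit, with Kcn or with Cacn, and whose mean level over the 12 soma libraries was at least 1 CPM (counts per 1000000 counts assigned to genes). Of 134 matching protein-coding genes among the 55487 gene identifiers of the files, 91 met that level and 43 did not, and 5 matching genes that are not protein-coding were left out. Kcng4 (1.18 CPM) and Kcnh8 (1.36 CPM) were just inside the threshold, and Kcnj12 (0.930 CPM) and Kcnj15 (0.920 CPM) just outside. The symbol rule reaches past voltage-gated channels: the 9 inward rectifiers (Kcnj), the 8 two-pore leak channels (Kcnk) and the 5 Cacng proteins do not open with voltage, so the results are ordered by family.

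The cells were dissociated from hippocampi of newborn C57Bl/6 mice at postnatal day 1 and kept in microfluidic chambers, where axons enter a side separate from the somata. All cultures, controls included, took up magnetic nanoparticles (MNPs, 5 µg/ml). Stretched cultures were held in a magnetic field gradient of 50 T/m from day in vitro 1 to day 6, which pulls on the loaded neurites, and control cultures had a null gradient. There were 6 control and 6 stretched soma libraries, which the labels call total cell culture and which were collected from the somatodendritic side, and 5 control and 6 stretched libraries labelled as pure axonal preparations. No label says whether replicates were separate cultures or animals, so p-values measure the spread between these samples, which may be technical.

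Sodium channel pores open the action potential, voltage-gated potassium channels end it and set its rate, and calcium channels couple it to release of transmitter and to signalling. Beta, alpha2delta and other auxiliary subunits carry the pores to the membrane and change their gating, while inward rectifiers and leak channels hold the resting potential. In young hippocampal neurons many of these genes are switched on over the first days in culture, and the sodium channel isoforms change as the cells mature.

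The libraries held 16369153 to 43048953 counts, and 3 counts, the limit that a count of 0 allows, was 0.0697 to 0.183 CPM. Intervals and limits of this kind cover counting error only. All 91 channel genes were above 3 counts in every soma library, and 14 to 46 of them had any count in an axonal library. Control soma replicate 4 stood apart from the other controls: over the 59 channel genes used for this check its mean correlation of log2 levels was 0.902 with the other controls and 0.966 with the stretched libraries, whereas each other control was closer to the controls than to the stretched libraries. Counts of called channel genes and their partners in somata, and the values of the channel genes described singly, are therefore given with and without it. The soma libraries also fell into a set with 24.7 to 28.7 CPM of the Y-linked gene Eif2s3y (control 1, 2 and 3 and stretched 1, 2 and 8) and a set with 5.39 to 13.2 CPM (control 4, 5 and 6 and stretched 4, 5 and 6).

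Per kilobase of longest annotated transcript, the channel genes covered a wide range of levels in the somata. The leak channel Kcnk1 was highest at 78.1 CPM per kb, followed by the sodium channel subunit Scn3b at 63.1, the calcium channel subunit Cacnb3 at 52.7, the sodium channel pore Scn2a at 31.0, the potassium channel subunit Kcnab2 at 27.8 and the A-type potassium channel pore Kcna4 at 25.5. The median of the 91 genes was 2.52 CPM per kb, and the lowest were Kcna2 (0.20), Kcng4 (0.310), Kcnh8 (0.316) and Cacna1a (0.376), the pore of the P/Q-type calcium channel. Auxiliary subunits thus took 3 of the 5 highest places, and no calcium channel pore was above 5.05 CPM per kb (Cacna1h). The coordinates below are those of GRCm38 (mm10).

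**Figure D1:**
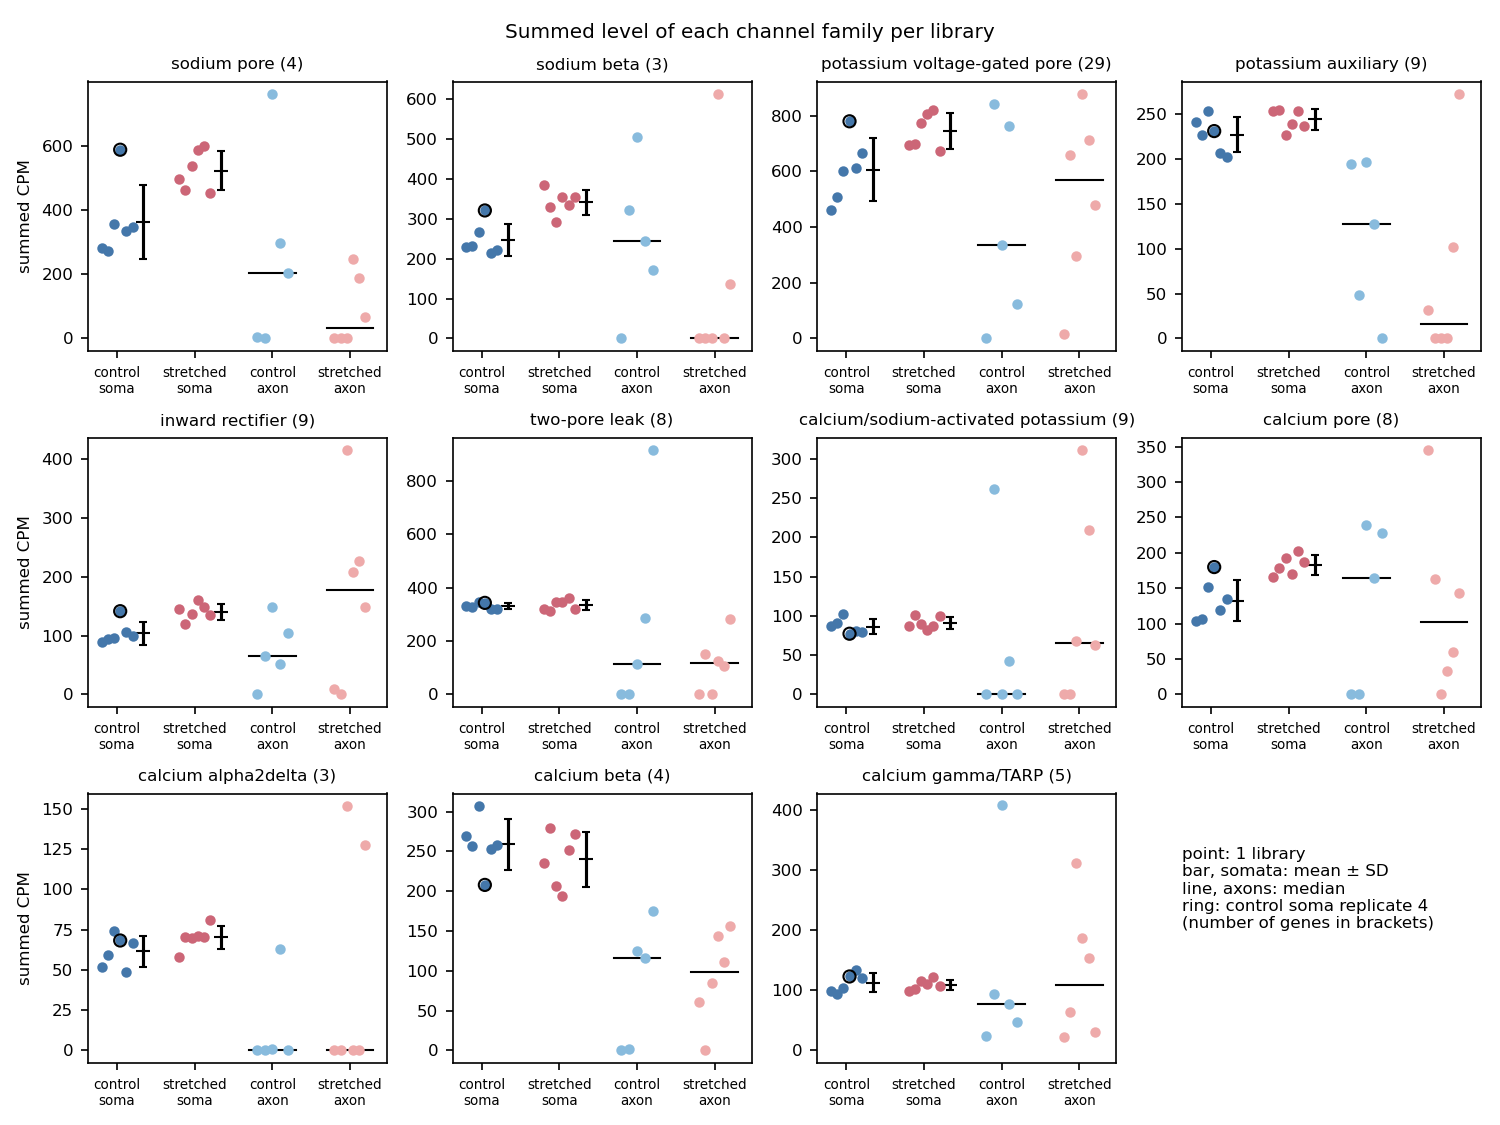
Summed level of each channel family per library, in CPM, for the 4 groups. Each point is 1 library, bars on the soma groups are mean ± SD, lines on the axonal groups are medians, and rings mark control soma replicate 4, which sits with the stretched somata for the sodium channel pores (587 CPM) and the inward rectifiers (142 CPM).

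As summed levels over all 91 genes, channel transcripts held 2531 ± 302 CPM in control somata and 3020 ± 136 CPM in stretched somata (SD, n = 6 each). The 4 sodium channel pores summed to 363 ± 115 CPM in controls and 522 ± 61.3 CPM in stretched somata, and without control replicate 4 the controls came to 319 ± 39.0 CPM (n = 5). The 3 sodium channel beta subunits summed to 248 ± 40.1 and 341 ± 31.3 CPM, the 8 calcium channel pores to 133 ± 29.4 and 183 ± 13.9 CPM, and the 9 inward rectifiers to 104 ± 19.2 and 141 ± 13.8 CPM. The 29 voltage-gated potassium channel pores summed to 605 ± 113 and 744 ± 63.8 CPM. Without control replicate 4 the control sums of these 4 families were 233 ± 20.4, 123 ± 20.2, 96.7 ± 6.32 and 570.3 ± 82.6 CPM (SD, n = 5), and that of all 91 genes was 2425 ± 172 CPM. With all 6 controls, the 8 leak channels (332 ± 10.3 and 335 ± 19.0 CPM) and the 4 calcium channel beta subunits (259 ± 31.9 and 240 ± 34.3 CPM) differed by less than their SD. Control replicate 4 was the lowest control for the beta subunits (208 CPM). Without it the control sums were 330 ± 9.71 CPM for the leak channels and 269 ± 22.3 CPM for the beta subunits (SD, n = 5). The beta subunits then differed by more than the control SD. These sums are descriptions, since a few abundant genes set each of them. In RNA from whole compartments, fewer cells of a type and less RNA per cell cannot be told apart.

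Stretch in the somata changed 16 of the 91 channel genes, 11 higher and 5 lower, at an adjusted p under 0.05 in edgeR's quasi-likelihood test with Benjamini-Hochberg adjustment over all genes tested. That is 17.6% of the channel genes, where 25.1% of the 15632 genes tested passed, 11.2% higher and 13.9% lower. The genes that rose included 2 of 4 sodium channel pores, 2 of 3 sodium channel beta subunits, 4 of 29 voltage-gated potassium channel pores and 1 each of the 9 potassium channel auxiliary subunits, 9 inward rectifiers and 8 calcium channel pores. Those that fell included 2 voltage-gated potassium channel pores, 1 of 8 leak channels and 1 of 4 calcium channel beta subunits. No gene of the alpha2delta, Cacng or calcium- and sodium-activated potassium channel families passed. The median log2 fold change was 0.13 over the 91 genes and -0.03 over all genes tested, and 57 values were positive and 34 negative. Without control soma replicate 4, 24 channel genes were higher and 7 lower, among them all 16 of the first list, while 38.3% of all genes passed. Leaving out any other single library gave 5 to 12 higher and 2 to 4 lower, where 16.8% to 22.4% of all genes passed. Within the low Eif2s3y set alone, 0 of 15718 genes passed by edgeR, with 19 channel genes at an unadjusted p under 0.05, and within the high set 16 channel genes were higher and 2 lower (19.8%), where 29.2% of all genes passed.

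**Figure D2:**
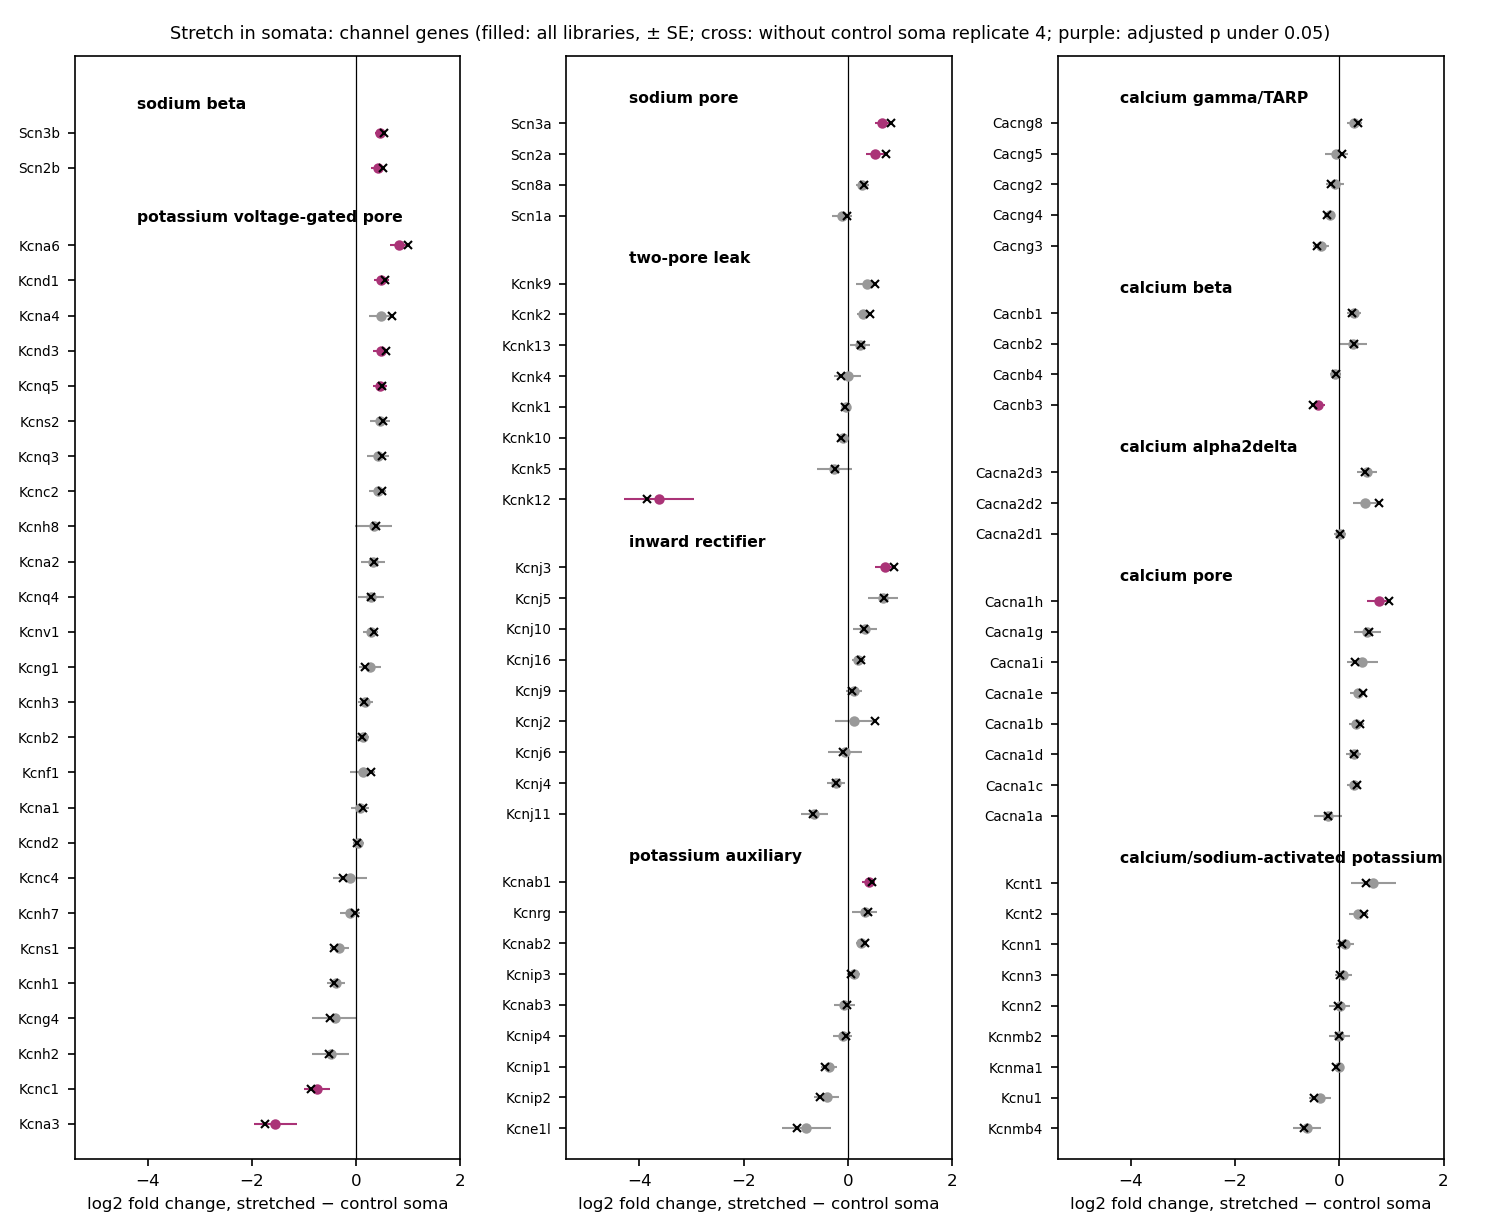
Log2 fold change, stretched minus control soma, of the channel genes reported here by name, by family. Circles are values with all 12 libraries, with their SE; crosses leave out control soma replicate 4; purple marks those with an adjusted p under 0.05, from Kcnk12 at -3.62 to Kcna6 at 0.82.

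Among the sodium channel pores, which lie largely in a cluster on chromosome 2, Scn3a and Scn2a rose and Scn8a and Scn1a did not pass. Scn3a (chromosome 2, 65457118 to 65567627) encodes the pore that prevails before and around birth. Its level, in CPM scaled by edgeR's TMM factors (trimmed mean of M values) as in the rest of the soma results on single genes, was 64.7, 60.8, 81.1, 126, 71.9 and 72.3 CPM in control somata 1 to 6 and 110.6 at the lowest, 127.5 at the median and 147 at the highest in stretched somata. Control 4 lay inside the stretched range and the other 5 controls lay below it. The log2 fold change was 0.67 (SE 0.15, adjusted p = 0.00902, edgeR) and 0.83 without control 4. Scn2a (chromosome 2, 65620771 to 65767447), the main pore of young excitatory axons, was at 175, 167, 218, 381, 209 and 206 CPM in the controls and 272 to 379 CPM, with a median of 322, in stretched somata. Control 4 was above every stretched library and the other 5 controls below every one. Its log2 fold change was 0.53 (SE 0.17, adjusted p = 0.0397, edgeR) and 0.73 without control 4. Scn8a, the pore that replaces Scn2a at mature initial segments and nodes, had a log2 fold change of 0.28 (adjusted p = 0.120, edgeR), and Scn1a, a pore found mostly in inhibitory neurons of older brain, one of -0.11 (adjusted p = 0.705, edgeR).

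Sodium channel beta subunits are single-pass membrane proteins that modulate gating and adhere to other cells, and Scn3b and Scn2b rose. Scn3b (chromosome 9, 40269217 to 40291618), the most abundant beta subunit, was at 189 to 287 CPM in controls with a median of 209, and at 257 to 344 CPM with a median of 302 in stretched somata. The 5 controls other than replicate 4 lay below every stretched library. The log2 fold change was 0.46 (SE 0.10, adjusted p = 0.00879, edgeR). Scn2b rose by a log2 fold change of 0.41 (SE 0.13, adjusted p = 0.0326, edgeR) from controls of 17.0 to 26.6 CPM to 21.3 to 30.9 CPM. With offsets for transcript length and GC content Scn3a kept 0.41 (adjusted p = 0.0129, edgeR), whereas Scn2a was at 0.28 (adjusted p = 0.0911, edgeR) and Scn2b at 0.29 (adjusted p = 0.105, edgeR).

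Potassium channels gave the widest range of changes. The gene with the lowest adjusted p was the leak channel Kcnk12, a two-pore subunit that is mostly held inside the cell. Kcnk12 was low in every library. It had 0.65, 3.83, 10.2, 1.02, 5.46 and 10.1 CPM in control somata 1 to 6 and 0.19 to 0.78 CPM, with a median of 0.31, in stretched somata. Controls 1 and 4 lay near the stretched libraries, and control 1 overlapped them. The log2 fold change was -3.62 (SE 0.67, adjusted p = 0.00498, edgeR), or -3.84 without control 4. Kcna3, a Shaker-type pore, was at 3.06, 6.14, 2.72, 1.86, 8.43 and 13.6 CPM in the controls and 1.63 to 2.76 CPM in stretched somata, with a log2 fold change of -1.55 (SE 0.41, adjusted p = 0.0166, edgeR). Kcnc1, a pore that lets neurons fire fast, was at 13.7, 18.4, 30.5, 16.05, 23.6 and 48.3 CPM in the controls and 13.4 to 17.4 CPM in stretched somata, with a log2 fold change of -0.76 (SE 0.25, adjusted p = 0.0395, edgeR). In Kcna3 and Kcnc1 control 6 was highest and the control libraries spread far more than the stretched ones. Over the 12 soma libraries, the log2 levels most like those of Kcnk12 among the other 90 channel genes were those of Kcnc1 (Pearson r = 0.88) and Kcna3 (0.77), given as a description of libraries that share their groups.

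Kcna6 (chromosome 6, 126708329 to 126740674), another Shaker-type pore, had the highest positive log2 fold change. It was at 34.1, 43.5, 55.9, 89.1, 55.1 and 52.8 CPM in control somata 1 to 6 and 85.6 to 106 CPM, with a median of 97.2, in stretched somata. Control 4 alone reached the stretched range. The log2 fold change was 0.82 (SE 0.17, adjusted p = 0.00706, edgeR), 0.99 without control 4 and 0.68 with length and GC offsets. The neighbouring gene Kcna1 had a log2 fold change of 0.08 (adjusted p = 0.779, edgeR). The fast-inactivating A-type pores Kcnd1 and Kcnd3 rose by log2 fold changes of 0.48 (SE 0.14, adjusted p = 0.0238, edgeR) and 0.47 (SE 0.14, adjusted p = 0.0279, edgeR). Kcna4, the most abundant of the 29 pores and also of the A type, had 0.48 but did not pass (SE 0.23, adjusted p = 0.140, edgeR). Its values followed the Eif2s3y sets, at 71.3 to 80.1 CPM in controls 1, 2 and 3 and 105 to 171 CPM in controls 4, 5 and 6. Kcnq5, one of the pores of the slow M-type current, rose by 0.46 (SE 0.14, adjusted p = 0.0279, edgeR). The cytosolic Shaker-channel subunit Kcnab1 rose by 0.40 (SE 0.13, adjusted p = 0.0308, edgeR), and the more abundant Kcnab2 had 0.26 (adjusted p = 0.0788, edgeR).

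Of the inward rectifiers, Kcnj3, a pore opened by G proteins downstream of inhibitory receptors, was the only one of 9 to pass. It was at 35.1, 31.4, 35.3, 72.3, 46.4 and 42.6 CPM in control somata and 50.9 to 88.4 CPM in stretched somata, with a log2 fold change of 0.71 (SE 0.19, adjusted p = 0.0185, edgeR). Control 4 lay in the stretched range and the other controls below it. The leak channel Kcnk1, the most abundant of the 8, was at 165 to 188 CPM in controls and 152 to 198 CPM in stretched somata (log2 fold change -0.04, adjusted p = 0.748, edgeR). Kcnma1, the large calcium-activated potassium channel, had a log2 fold change of -0.01 (adjusted p = 0.962, edgeR).

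**Figure D3:**
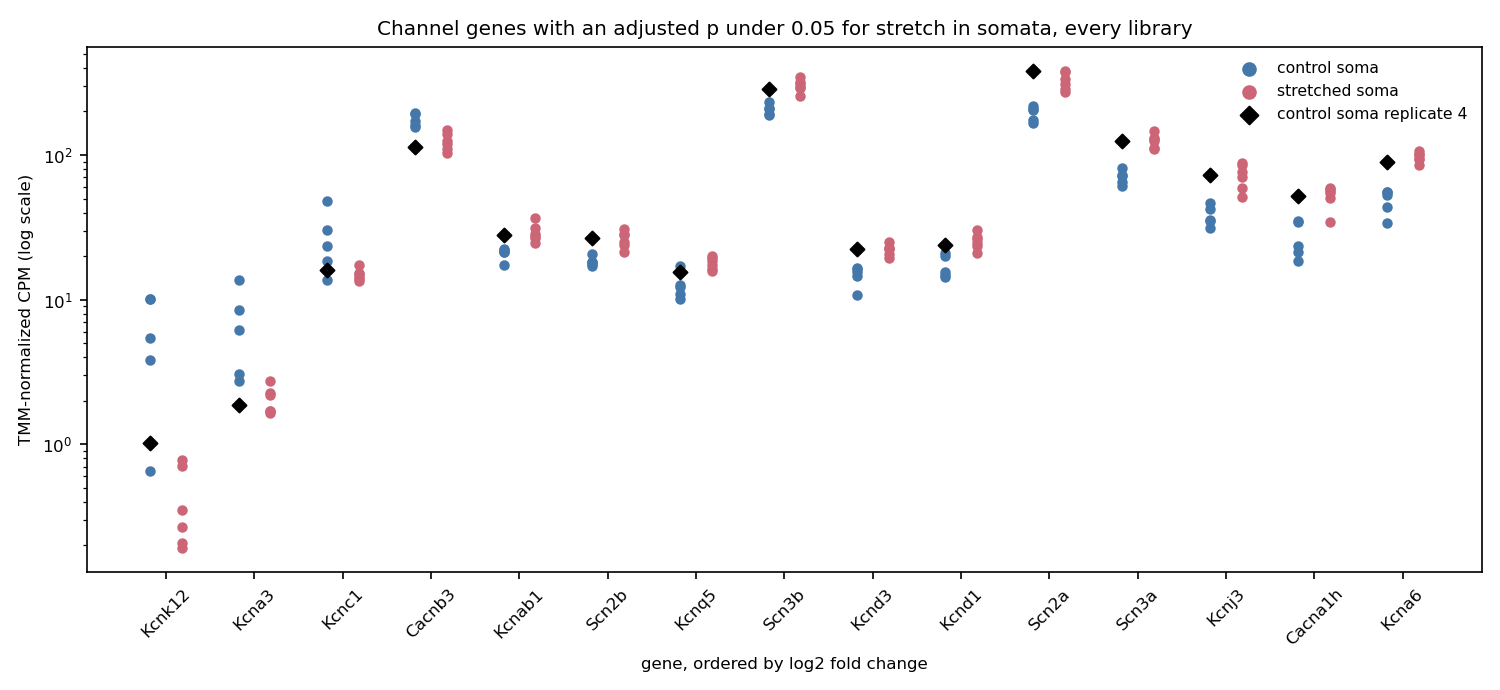
TMM-normalized CPM, on a log axis, of channel genes with an adjusted p under 0.05 for stretch in somata. Blue points are control libraries, red points stretched libraries and black diamonds control soma replicate 4, which lies inside the stretched range for most of them.

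Among calcium channels, 1 pore rose and 1 beta subunit fell. Cacna1h (chromosome 17, 25374285 to 25433783) is the pore of a T-type channel, which opens near the resting potential. It was at 18.4, 21.4, 34.8, 51.9, 23.4 and 34.4 CPM in control somata and at 57.7, 56.1, 50.3, 34.4, 58.7 and 54.7 CPM in stretched somata 1, 2, 4, 5, 6 and 8. Stretched replicate 5 was the only stretched library below 50.3 CPM, and it fell among the controls. The log2 fold change was 0.76 (SE 0.22, adjusted p = 0.0251, edgeR). Cacnb3 (chromosome 15, 98630840 to 98644529), a cytosolic subunit that brings calcium channel pores to the membrane, was at 114 to 194 CPM in controls and 104 to 149 CPM in stretched somata, and control 4 was the lowest control. Its log2 fold change was -0.41 (SE 0.12, adjusted p = 0.0285, edgeR), and with length and GC offsets it was -0.15 (adjusted p = 0.325, edgeR). Cacna2d1, the most abundant alpha2delta subunit and the one that binds gabapentin, had 0.02 (adjusted p = 0.932, edgeR). Cacng5 had -0.06 (adjusted p = 0.877, edgeR), and its level moved with the Eif2s3y sets: controls 1, 2 and 3 were at 25.1, 27.4 and 31.0 CPM and controls 4, 5 and 6 at 59.1, 58.0 and 54.1 CPM.

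Control soma replicate 4 lay inside the range of the stretched libraries for 13 of the 16 called genes, and for 13 it was the control nearest to the stretched libraries. With it, no channel gene had control and stretched ranges that failed to overlap, where 4.04% of all genes tested did. Without it, 15 channel genes did, where 22.8% of all genes did. Of the genes for which this value is not given above, the log2 fold change without it was 0.54 for Scn3b, 0.51 for Scn2b, 0.56 for Kcnd1, 0.58 for Kcnd3, 0.50 for Kcnq5, 0.47 for Kcnab1, 0.90 for Kcnj3 and 0.96 for Cacna1h on the higher side, and -1.75 for Kcna3, -0.87 for Kcnc1 and -0.50 for Cacnb3 on the lower. Among the 16 called genes the other 5 controls stood clear of the stretched libraries in 11. The 16 were called on these same libraries, so the 11 are a description only. The genes that did not pass with all 12 libraries and passed without it included the calcium channel pores Cacna1b, Cacna1c and Cacna1e, the leak channels Kcnk2 and Kcnk9 and the pores Kcna4 and Kcnc2 on the higher side, and Cacng3 and Kcnip1 on the lower; they are named here after their values were seen. All of these but Cacng3 also passed in at least 1 of the alternative settings that keep it. Of the other genes named above, Kcnab2 passed without it at 0.33 (adjusted p = 0.00805, edgeR). Scn8a had 0.31, Scn1a -0.01, Kcna1 0.13, Kcnk1 -0.04, Kcnma1 -0.06, Cacna2d1 0.02 and Cacng5 0.05, and these 7 did not pass. In all 28 alternative settings none of the 16 called genes changed sign. Scn3a, Scn3b, Kcna6 and Kcnj3 passed in 27 of the 28, Kcnk12 in 26 and Kcna3 in 25, whereas Scn2a passed in 16 and Kcnc1 in 13.

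Across the channel genes together, the log2 fold change rose with transcript length as it did over all genes, though not in every length class. The 11 genes that rose had longest transcripts of 4150 to 9560 bases with a median of 5836, and the 5 that fell had a median of 1972 bases, with Kcnc1 at 7760 the exception. Spearman's rho between log2 fold change and transcript length was 0.457 over the 91 channel genes and 0.457 over all 15619 genes tested that have a length, a description across genes that share libraries. Over all genes tested the median log2 fold change was -0.32 for transcripts under 2000 bases and 0.25 for those of 6000 to 8000 bases. The channel genes of these classes had medians of -0.61 (7 genes) and -0.04 (8 genes). With offsets for length and GC content 7 channel genes were higher and 7 lower, 5 and 3 of them shared with the first list, while 15.96% of all genes passed. Scn3a, Scn3b, Kcna6, Kcnj3 and Cacna1h were the 5, and Kcnk12, Kcna3 and Kcnc1 the 3. What this relation comes from was not tested.

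**Figure D4:**
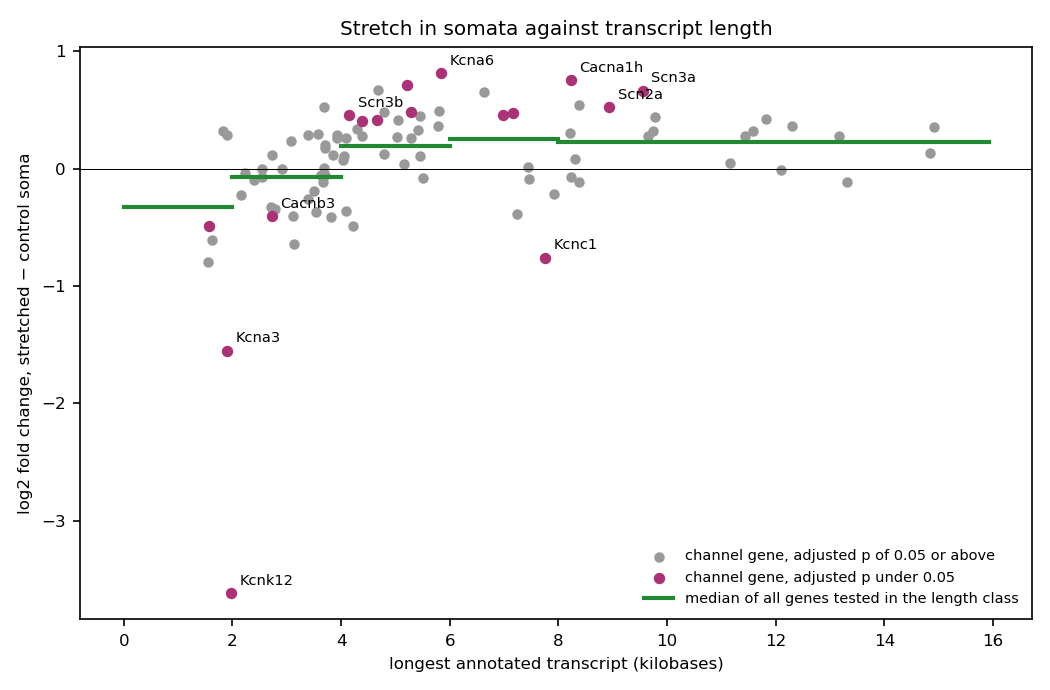
Log2 fold change, stretched minus control soma, against the length of the longest annotated transcript for the 91 channel genes. Green lines are the medians of all genes tested in each length class, from -0.32 under 2000 bases to 0.25 at 6000 to 8000 bases; purple points passed the test, and Kcnk12 and Kcna3 lie far below the line of their class.

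The promoters of the 2 called genes with the lowest and the 2 with the highest log2 fold change among those in the table are printed to show their base composition beside the direction of change. RefSeq's table for GRCm38.p6 held a window from 250 bases before to 50 after the start for 66 of the 91 genes, 99 starts in all. Capitals mark CG, read the same on both strands. The first pair fell and the second pair rose, and the genes were chosen after their values were seen. The windows are chr17:87797945-87798244 (minus strand), chr3:107035912-107036211 (plus), chr6:126740625-126740924 (minus) and chr2:55435720-55436019 (plus).
Kcnk12: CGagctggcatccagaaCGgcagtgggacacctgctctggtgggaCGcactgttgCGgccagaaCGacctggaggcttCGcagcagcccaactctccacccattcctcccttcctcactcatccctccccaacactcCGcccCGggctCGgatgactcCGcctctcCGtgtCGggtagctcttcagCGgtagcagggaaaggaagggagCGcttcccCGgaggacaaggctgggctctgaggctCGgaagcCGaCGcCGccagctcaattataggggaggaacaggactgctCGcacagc
Kcna3: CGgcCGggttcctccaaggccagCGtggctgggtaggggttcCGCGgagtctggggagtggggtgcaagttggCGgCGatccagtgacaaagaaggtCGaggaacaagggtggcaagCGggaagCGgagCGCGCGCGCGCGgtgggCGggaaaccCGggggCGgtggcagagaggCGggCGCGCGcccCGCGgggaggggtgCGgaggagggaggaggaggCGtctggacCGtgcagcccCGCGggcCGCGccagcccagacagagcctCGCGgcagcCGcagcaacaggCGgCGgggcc
Kcna6: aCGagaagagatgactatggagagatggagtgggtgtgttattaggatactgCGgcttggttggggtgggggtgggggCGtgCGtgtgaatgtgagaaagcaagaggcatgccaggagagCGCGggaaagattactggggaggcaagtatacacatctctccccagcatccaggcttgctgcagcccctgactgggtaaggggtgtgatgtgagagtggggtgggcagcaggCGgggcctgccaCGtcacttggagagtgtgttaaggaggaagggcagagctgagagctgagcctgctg
Kcnj3: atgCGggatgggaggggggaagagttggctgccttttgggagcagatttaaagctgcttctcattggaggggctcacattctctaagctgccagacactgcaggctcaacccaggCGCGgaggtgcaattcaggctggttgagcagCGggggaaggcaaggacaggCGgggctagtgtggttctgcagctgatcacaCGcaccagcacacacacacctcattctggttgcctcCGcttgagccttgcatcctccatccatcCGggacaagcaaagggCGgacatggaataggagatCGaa

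Kcna3 had 37 CG dinucleotides in these 300 bases, a number reached by 5.58% of all 32851 starts in the table, and Kcnk12 had 20, reached by 26.5%. Kcna6 had 8 and Kcnj3 10, against a median of 7 over all starts and 11 over the starts of channel genes. Of the other genes that fell, Kcnc1 had 41, and the 2 starts of Cacnb3 had 7 and 29. Of the other genes that rose with an entry in the table, Scn2a had 3 and 9 at its 2 starts, Scn2b had 2 and Kcnab1 1 to 7 over 3 starts, while Kcnd3 had 25 and Kcnq5 3 and 20. The 2 directions therefore overlapped. These counts describe the letters only, and no methylation or binding was measured.

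Proteins that bind, place or turn over these channels were read from a list of 40 measured genes, which holds pacemaker and leak cation channels, cytosolic partners and the scaffold of the axon initial segment. In the somata 10 rose, and 27.5% of the list passed in either direction. Fgf14, a cytosolic partner of sodium channels, rose by a log2 fold change of 0.77 (SE 0.20, adjusted p = 0.0146, edgeR), Dpp10, a partner of the Kcnd pores, by 0.71 (SE 0.19, adjusted p = 0.0167, edgeR), and Lrrc55, an auxiliary subunit of Kcnma1, by 0.58 (SE 0.16, adjusted p = 0.0208, edgeR). The others that rose were Nrcam, Cntn1, Cntn2, Dlg2, Lgi1, Adam23 and Nedd4l. Without control soma replicate 4, 19 rose and 55.0% of the list passed, where 38.3% of all genes did. The 10 were all among the 19, with Fgf14 at 0.98, Dpp10 at 0.74 and Lrrc55 at 0.74.

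Markers of cell types were read in the same comparison of somata, where 25.1% of the 15632 genes tested passed. None of the 2 hippocampal neuron markers and none of the 2 dividing-cell markers passed. Of 8 neuron markers 1 rose and 4 fell under stretch, and their sum was 5700 to 6827 CPM in control and 5417 to 6112 CPM in stretched somata. Of 3 inhibitory neuron markers 2 rose, Gad1 and Slc32a1, and their sum was 139 to 234 CPM in controls and 188 to 251 CPM in stretched somata, with control 4 the highest control. Of 4 excitatory neuron markers Camk2a fell and none rose, and their sum was 1035 to 1238 CPM in controls and 982 to 1122 CPM in stretched somata. None of the 7 astrocyte markers passed (4767 to 12966 and 4997 to 10824 CPM). Of 6 microglial markers 1 fell (22.7 to 46.6 and 15.4 to 22.7 CPM). Of 5 endothelial and mural markers 1 rose (136 to 235 and 188 to 249 CPM), and of 4 fibroblast-like markers 1 fell (105 to 170 and 112 to 183 CPM). Of the 8 oligodendrocyte lineage markers Mog alone passed, and rose, while Sox10 was at 0 in all somata. Their sum was 42.7 to 74.1 CPM in controls (median 68.4) and 39.8 to 57.3 CPM in stretched somata (median 44.5). Olig1, the most abundant of them in controls, had a mean of 30.9 CPM there and 11.2 CPM in stretched somata. It did not pass (log2 fold change -1.52, adjusted p = 0.0862, edgeR). The part of these cells in the channel results was not tested.

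In the axonal libraries most channel genes had no count, and those present ranged from single counts to levels above the somata, with different genes in different libraries. Of the 1001 values of 91 genes in 11 axonal libraries, 725 (72.4%) were 0. Of the 276 values above 0, 66 (23.9%) were 1 to 3 counts and 127 (46.0%) were above the mean of the same gene in somata. Over the 12992 protein-coding genes of at least 1 CPM in somata the same shares were 60.6%, 8.48% and 56.2%. The number of channel genes with a count was 14, 17, 21, 44 and 20 in control axons 1, 2, 3, 5 and 7 and 18, 16, 22, 27, 31 and 46 in stretched axons 1, 2, 4, 5, 6 and 8. Control 5, which also had the most counts in all, and stretched 8 held the most; thinned to the 16369153 counts of the smallest library, control 5 held 41. At 10 to 100 CPM in somata the median axonal library had counts for 31.4% of the 51 channel genes and for 34.9% of all 7162 genes of that level. At 100 CPM or more the shares were 50.0% of 8 channel genes and 76.1% of all genes, and at 1 to 10 CPM 9.38% and 11.2%.

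**Figure D5:**
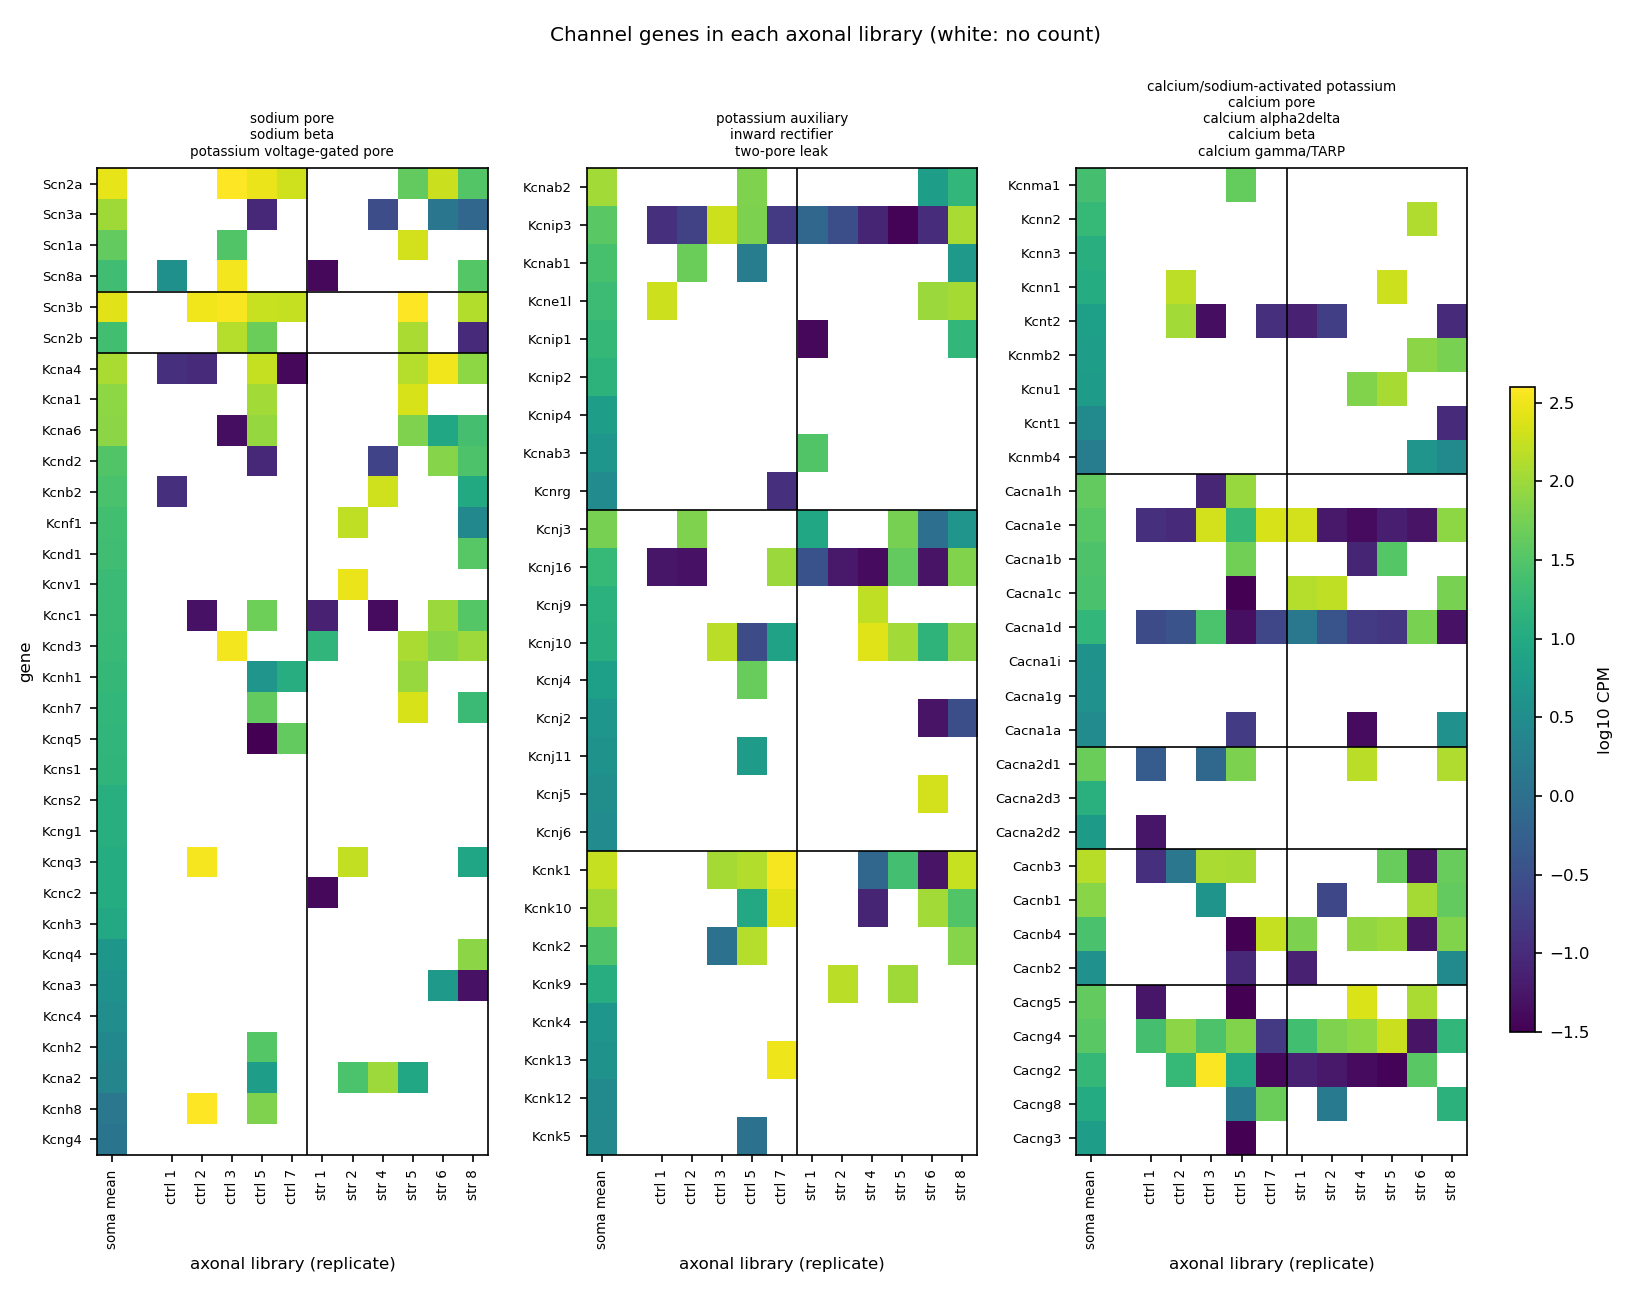
Level of the channel genes reported by name, as log10 CPM, in somata (mean, first column) and in each of the 11 axonal libraries, with white for no count. Rows are genes by family and the vertical line divides control from stretched axons; neighbouring libraries hold different genes, and 15 rows are white throughout.

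The labelled axonal origin was compared with markers. The 8 neuron markers summed to 1283 to 4385 CPM in control and 2314 to 3958 CPM in stretched axons, below the somata. The 7 astrocyte markers summed to 3976 to 21496 CPM and 4052 to 19711 CPM, a range that reaches above that of the somata, and the dendritic marker Map2 had counts in all 11 libraries. The microglial sum ranged from 0 to 363 CPM and the sum of the 2 dividing-cell markers from 0 to 887 CPM. The part of non-axonal RNA in the channel values was not tested.

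The 2 sodium channel pores that rose in somata differed in axons. Scn2a was at 0, 0, 396, 298 and 202 CPM in the control axons and 0, 0, 0, 40.7, 186 and 32.3 CPM in the stretched axons, in the order above. It was at 0 in 5 libraries and at 186 CPM or more in 4, while stretched axons 5 and 8 held 40.7 and 32.3 CPM, against soma means of 223 CPM in controls and 330 CPM in stretched cultures (n = 6 each). Scn3a, whose soma level was 78.5 CPM in controls and 128 CPM in stretched cultures, was at 0, 0, 0, 0.093 and 0 CPM in control axons and 0, 0, 0.292, 0, 1.30 and 0.708 CPM in stretched axons. It never passed 1.30 CPM. Scn3b, the beta subunit, was at 0, 321, 366, 181 and 172 CPM in control axons and 0, 0, 0, 441, 0 and 135 CPM in stretched axons.

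Against the somata of the same condition, axonal levels were lower for 43 of 91 channel genes in controls and for 32 of the 89 tested in stretched cultures, and higher for none (edgeR, adjusted p under 0.05). These are 47.3% and 36.0%, where 35.3% of all genes tested passed in controls (34.4% lower, 0.856% higher) and 29.3% in stretched cultures (28.4% lower, 0.843% higher). Of the called genes, 33 of 43 and 25 of 32 were at 0 throughout the axonal libraries of that condition. The lists shared 21 genes, 48.8% of the first and 65.6% of the second, and 13 of the 21 had no count in any of the 11 axonal libraries. The channel genes were chosen by a soma mean of at least 1 CPM, which the other genes tested did not have to meet, and the called genes at 0 in axons entered the test through their soma counts alone. The shares therefore describe the 2 sets, and nothing is read from their difference. In simulated counts for the control comparison, 0 of 96 2-fold and 0 of 95 4-fold changes were recovered. A gene that was not called can therefore still differ from the somata by such a fold.

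Those 21 included the silent subunits Kcns1, Kcns2 and Kcng1, which modify other potassium channel pores without conducting by themselves. They were at 17.0 ± 4.64, 10.1 ± 2.55 and 10.3 ± 3.47 CPM in control somata (SD, n = 6) and at 0 in all 11 axonal libraries. Taking the limit of 3 counts per library, in control axons Kcns1 was at least 134-fold, Kcns2 at least 79.9-fold and Kcng1 at least 81.4-fold lower. In stretched axons the bounds were at least 101-fold, 102-fold and 91.9-fold. These bounds cover counting error only, and the 3 genes entered the test through their soma counts alone. At 10 to 100 CPM in somata the median axonal library had counts for 34.9% of all genes. Also at 0 in all 11 libraries and lower in both conditions were the T-type calcium channel pores Cacna1g and Cacna1i, the alpha2delta subunit Cacna2d3, the Kcnd partners Kcnip2 (at least 125-fold lower in controls) and Kcnip4, the pores Kcnc4 and Kcnh3, the calcium-activated Kcnn3, the inward rectifier Kcnj6 and the leak channel Kcnk4. Scn3a was lower in both, by a log2 fold change of -8.70 in stretched cultures (SE 1.82, adjusted p = 0.00203, edgeR). In controls (adjusted p = 0.000182, edgeR) no fold is given, because its axonal mean of 0.0186 CPM was below the 0.127 CPM that 3 counts are worth on average. Scn2a was not called in either (-0.47, adjusted p = 0.931, and -3.29, adjusted p = 0.335, edgeR). The remaining genes of the 21 were Cacna2d2, Cacng3, Kcnc2, Kcnj2, Kcnrg and Kcnt1.

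At the other end, 4 genes had counts in all 11 axonal libraries: Cacng4, an AMPA receptor auxiliary subunit, the L-type pore Cacna1d, the R-type pore Cacna1e and the calcium-binding Kcnip3. Cacng4 was at 24.6, 77.1, 28.6, 66.1 and 0.155 CPM in control axons and 22.8, 63.0, 80.2, 187, 0.052 and 16.5 CPM in stretched axons, against a soma mean of 35.6 CPM, and was above 3 counts in 10 libraries. The other genes of this kind had few counts in most libraries: Cacna1e was above its soma mean of 34.3 CPM in 4 libraries and at 0.042 to 0.111 CPM in 6. Cacng2, with counts in 9 libraries, was at 379 CPM in control axon 3 and at 35.1 CPM or less elsewhere. None of these 5 genes was called against the somata.

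Stretch in the axons could be tested for 11 of the 91 channel genes, and 0 passed, as did 0% of the 4947 genes tested by edgeR, of which 46 had an unadjusted p under 0.05, none of them a channel gene. DESeq2 called 18 genes and limma with quality weights 8, with no channel gene among them. The smallest p-values belonged to Scn2a with a log2 fold change of -2.0 (SE 2.72), Cacnb3 with -1.68 (SE 2.77) and Kcnk1 with -1.64 (SE 2.75), each with an adjusted p of 1.00 by edgeR. The spread between libraries of a group, as edgeR's biological coefficient of variation, was 2.39 among axons and 0.240 among somata, and the SE of the 11 log2 fold changes was 1.97 to 3.10, so only far greater differences could have been detected.

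Exons of 31 of the 91 genes overlap exons of another gene, mostly on the opposite strand and mostly with partners under 1 CPM in somata. The partners measured above 1 CPM are Mcrs1 with Kcnh3 (122 CPM), Gca with Kcnh7 (18.2 CPM) and 5730480H06Rik with Kcnip4 (10.4 CPM). No level was available for the partners of Kcnab2 (same strand), Kcnj3 and Kcnq5 (opposite strand). The strand setting of the counting was not given, so reads of these pairs are uncertain.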

How the data were processed

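RNA-seq libraries of poly(A) RNA from 23 samples were deposited as read counts per gene, 1 table a sample. Per the submitters' processing notes the authors used FastQC 0.11.9, MultiQC 1.12, fastp 0.20.1, STAR 2.7.08a and HTSeq 0.13.5 with mm10; the annotation release, the strand setting and any use of molecular identifiers are not given in the sources used here. Rows that name no gene (14.2 to 24.4% of all reads) were left out of library sizes. CPM were computed from the deposited counts over all genes. Gene symbols matched 55141 of 55487 identifiers. Coordinates, biotypes, transcript lengths and exon overlaps came from GENCODE M21 (GRCm38).

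Each of the 4 comparisons was fitted on all genes of its own groups with edgeR 4.0.16 in R 4.3.3 (filterByExpr, TMM, robust quasi-likelihood F test, two-sided) and Benjamini-Hochberg adjustment at 0.05. DESeq2 1.42.0, voom weights in limma 3.58.1, other normalizations and filters, the replicate number as a block, offsets for length and GC content (mgcv 1.9.3), the Eif2s3y sets and the removal of single libraries were alternatives. The fits were also run on simulated counts with known changes. For stretch in somata 79 of 100 2-fold and 96 of 100 4-fold changes were recovered. For stretch in axons 0 of 82 were recovered at either size. For control axons against somata the numbers were 0 of 96 and 0 of 95. The comparison of stretched axons with somata was not simulated. Fold changes against groups with no count used a floor of 3 counts per library. Text and figures were made with Python 3.11.15, pandas 2.3.3, numpy 2.4.6 and matplotlib 3.10.9.

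Named in somata were the most abundant gene of each family and up to 3 called genes in each direction per family. Named in axons were genes called in both comparisons with somata, the 3 with the smallest p under stretch and the 5 with counts in most libraries; exceptions are marked in the text, and Kcnq5, Scn8a, Scn1a, Kcna1, Cacna1a and the levels per kilobase fall outside this rule. The genes and lists were chosen with earlier results of these data known. Some genes are counted but not reported here by name.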

Additional observations from a re-analysis of the deposited data

Results flagged for a closer look

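Each of 72 groups of values was examined for a library far from its group by Dixon's ratio at the 95% level, which chance exceeds in about 1 in 20 groups, and 7 were exceeded. Control soma replicate 4 gave 5 of the 7. It was at 381 CPM of Scn2a, where the next control had 218 CPM, at 126 CPM of Scn3a (next 81.1) and at 72.3 CPM of Kcnj3 (next 46.4). Its summed level of sodium channel pores was 587 CPM (next 357) and of inward rectifiers 142 CPM (next 106). Stretched soma replicate 5 was at 34.4 CPM of Cacna1h, where the next stretched library had 50.3 CPM. Control axon replicate 5 had counts of 44 channel genes, where the next control axon library had 21; it was also the library with the most counts.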

How the results depend on the processing

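The counts of channel genes called higher and lower in somata (11 and 5) were 13 and 4 with total counts, 11 and 5 with RLE factors or a filter of 1 CPM, and 13 and 6 with DESeq2. They came to 9 and 3 with no filter, 20 and 5 with limma voom, 18 and 8 with the Eif2s3y set as a covariate, 7 and 7 with length and GC offsets, 16 and 2 in the high Eif2s3y libraries alone, 0 and 0 in the low ones, and 20 and 5 without both libraries numbered 4. Over all genes tested, 9.22% passed with no filter, 35.5% with limma voom, 33.9% with the covariate, 15.96% with the offsets, 29.2% in the high set and 36.1% without both libraries numbered 4, against 13.2%, 27.5%, 28.6%, 15.4%, 19.8% and 27.5% of the channel genes. The shares of all genes were 25.6% with total counts, 25.1% with RLE factors, 29.8% with the filter of 1 CPM and 31.0% with DESeq2. Those of the channel genes were 18.7%, 17.6%, 17.6% and 20.9%. Leaving out 1 library at a time gave 5 to 24 higher and 2 to 7 lower, with 16.8% to 38.3% of all genes. In alternatives added after seeing the data they were 20 and 9 in the low Eif2s3y set without control soma 4, 13 and 10 with offsets and without control soma 4, and 28 and 6 with the replicate block and without both libraries numbered 4, with 27.5%, 26.8% and 38.1% of all genes. Why these counts moved was not tested, beyond the smaller number of libraries in some.

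With the replicate number as a block, 16 were higher and 5 lower in somata, and 11 and 3 with the block and the offsets (20.5% and 13.0% of all genes). Same-numbered soma libraries deviated together in 4 of 5 pairs (correlations of 0.003 to 0.397, threshold 0.1), and 2 of 5 libraries correlated best with their own number, so the numbers were not taken to pair the samples. In axons no pair passed 0.1. In axons against somata, limma voom gave 75 lower in controls and 74 in stretched cultures, and the block 46 and 61. Of all genes, 66.5% and 69.7% passed with limma voom and 35.9% and 53.1% with the block. Leaving out 1 library gave 43 to 62 lower in controls, with 32.1% to 53.6% of all genes passing. In stretched cultures it gave 32 to 44 lower, with 28.7% to 43.3% of all genes. DESeq2 called 1 higher in controls, and leaving out 1 library 0 to 1. The Eif2s3y covariate was not run for these comparisons, since 1 of its sets then held libraries of 1 group only. Stretch in axons gave 0 called channel genes under every alternative run, where edgeR called no gene of any kind.

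Of 588 values of the named soma genes under alternatives, 435 kept direction and side of the threshold, 105 kept direction but no longer passed and 18 kept direction and newly passed. The other 30 changed direction, all in genes that did not pass in the main fit (Cacna2d1, Cacng5, Kcnma1 and Kcnk1). No value of a called gene reversed. In the axonal libraries 3 counts were worth 0.0697 to 0.183 CPM, and in the soma libraries 0.0976 to 0.147 CPM.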
